A study of Mus musculus with 18 samples.

Results

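Messenger RNA from the brains of control mice was compared between total RNA and the fraction with long poly(A) tails. The comparison used 6 of the 18 arrays of the study, 2 from each of 3 control mice (CTRL), and took every array that the labels give for these 2 preparations. Cortex and striatum were pooled from each mouse at the age of 6 weeks. Total RNA is called INPUT. RNA that bound a poly(U) column was taken off with 25% formamide, which gave a short-tail fraction called WASH, and then with 90% formamide, which gave a long-tail fraction called ELUTED. The other 12 arrays are the 3 WASH preparations of the same mice and all 3 preparations of 3 mice with the transgene TgCPEB4∆4, and they are used here only to set the control values in context. The labels say nothing more of the control mice's genotype, and no source used here gives the transgene's promoter.

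The poly(A) tail is added to most messenger RNAs in the nucleus and shortened in the cytoplasm, and its length bears on how long a transcript lasts and how well it is translated. In neurons, proteins of the CPEB family bind elements near the 3′ end of some transcripts and recruit enzymes that lengthen or shorten the tail. A poly(U) column holds RNA by base pairing with the tail, so that longer tails need more formamide to come off.

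All values are log2 levels per probe set, a group of probes for 1 transcript. The quantity throughout is the difference ELUTED minus INPUT within a mouse, so that -1 stands for an ELUTED level at 50% of the INPUT level. Equal amounts of amplified cDNA were labelled for each array, so a value shows how large a transcript's part of its preparation was, not how much RNA the preparation held. Tissue was measured in bulk. In the level of a preparation, fewer cells of a type and less RNA per cell cannot be told apart. Both preparations of a mouse come from the same tissue. On each array the highest of 23 control probe sets that should bind nothing set a background level. It was 7.21, 7.07 and 7.52 in the INPUT arrays of mice 1, 2 and 3, and 7.30, 5.53 and 6.11 in the ELUTED arrays. The ELUTED array of mouse 1 stood apart, with the highest background of the 3 and the narrowest spread of values (SD 1.70 over all probe sets, against 1.81 and 1.77). The 3′ minus 5′ difference of control probe sets, a sign of RNA quality, moved with the preparation for the transferrin receptor. There it was -0.76, -1.21 and -1.31 in INPUT and -0.47, -0.62 and -0.46 in ELUTED. For Gapdh it was -0.23, -0.17 and -0.17 in INPUT and 0.15, -0.18 and -0.12 in ELUTED of mice 1, 2 and 3. For beta-actin, with no common direction, it was -0.88, -0.90 and -0.94 in INPUT and -1.08, -0.66 and -0.96 in ELUTED. The part of these differences in the results was not tested.

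Most transcripts that passed the test were depleted in the long-tail fraction. Ribosomal proteins, subunits of the respiratory chain, proteasome subunits and replication-dependent histones stood lower in ELUTED than in INPUT, by median differences between -1.43 and -1.83. Transcripts of voltage-gated channels, glutamate receptors, postsynaptic scaffolds and chromatin regulators had group medians from 0.02 to 0.10. Of 27022 probe sets tested with limma, 790 passed at an adjusted p under 0.05, which is 2.92%. Of these, 742 were lower in ELUTED (2.75%) and 48 were higher (0.178%), and 727 and 45 of them differed by at least 1 log2 unit. Counted as genes, each by its brightest probe set, 419 of 11974 were lower (3.5%) and 7 were higher (0.0585%).

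**Figure D1:**
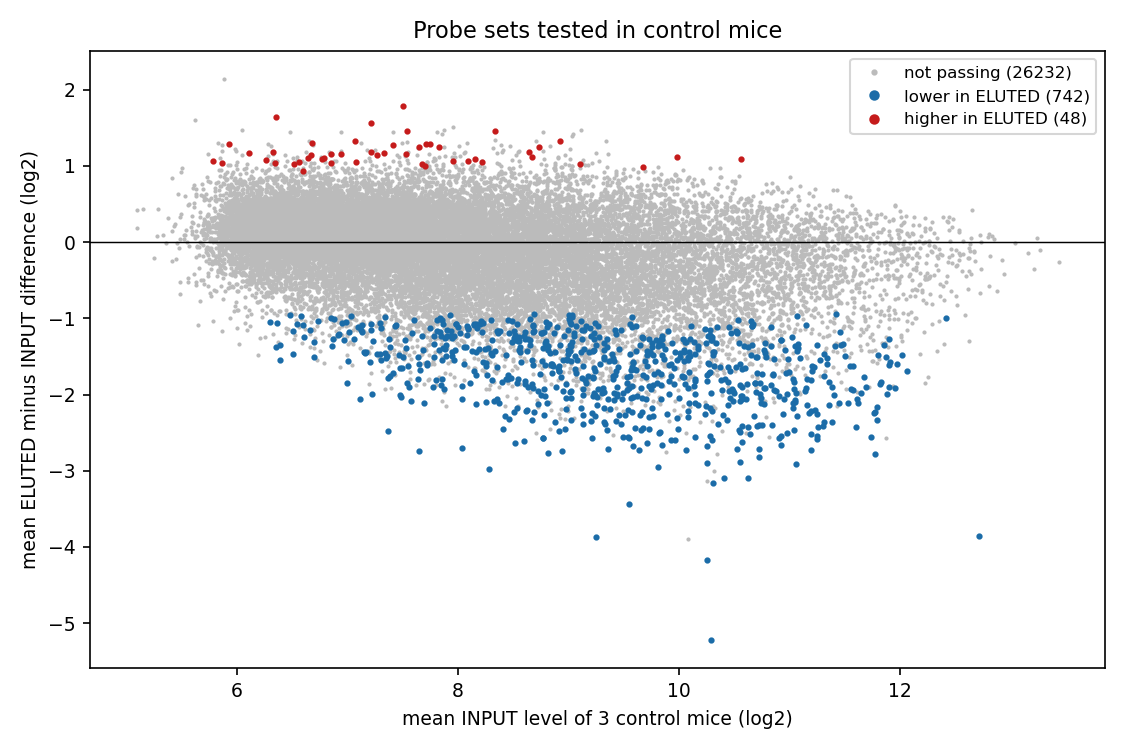
Mean ELUTED minus INPUT difference of 3 control mice (log2, vertical axis) against the mean INPUT level (log2, horizontal axis) for each of 27022 probe sets, with the 742 that passed as lower in blue and the 48 that passed as higher in red. The lowest point is H4c8 at -5.22, with ELUTED values under background, and the passing probe sets lie mostly below 0.

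The calls sat close to the threshold. Their median adjusted p was 0.0376, only 2 of the 790, H4c8 and H3c1, were under 0.03, and another 1878 probe sets lay between 0.05 and 0.1. The size of the differences varied between mice. The SD of the differences over all probe sets was 0.977 in mouse 1, 0.397 in mouse 2 and 0.621 in mouse 3. Without mouse 1 the count was 2114, without mouse 2 it was 3972, and without mouse 3 it was 3. All 790 kept their sign in each of these, which largely follows from their choice in the same mice. Over all genes, 32.4% were lower in all 3 mice and 24.7% were higher, with a median difference of -0.03.

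The lowest measured mean was that of a histone whose ELUTED signal was under background. H4c8 encodes core histone H4 and stood at 10.39, 10.26 and 10.21 in INPUT and at 4.82, 5.39 and 5.00 in ELUTED. Its differences were -5.58, -4.87 and -5.21, a mean of -5.22 ± 0.35 (SD, n = 3), with an adjusted p of 0.0061 in limma. The ELUTED signal was under the background level in all 3 mice, so the transcript was at least 15.7-fold lower there, taken from the normalized means with the dim arrays at background. This bound does not place it beyond H2bc22, whose mean was -4.16.

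H3c1, which encodes core histone H3, was above background on all 6 arrays. It read 12.70, 12.75 and 12.69 in INPUT and 9.11, 8.87 and 8.57 in ELUTED. The mean difference was -3.86 ± 0.26 (SD, n = 3; limma, adjusted p = 0.011), and the groups lay far apart in every mouse. The name of its probe set marks one shared by several transcripts, so other histone H3 genes may add to the value.

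Most mRNAs of replication-dependent histones are known to end in a stem-loop in place of a poly(A) tail. Of 13 such genes tested, 7 were lower in ELUTED and 0 were higher, against 3.5% lower among all genes. The other 5 were H2bc22 at -4.16, H1f4 at -2.63, H2bc4 at -2.23, H3c14 at -1.64 and H2bu2 at -1.39. The median of the 13 was -1.64, and it was -1.45, -1.15 and -1.58 in mice 1, 2 and 3. H1f2, a linker histone, gave -3.48, -0.37 and -1.58 and did not pass (adjusted p = 0.12). H3c7, H3c15 and H4bc24 had mean differences of 0.11, 0.13 and 0.31, and their INPUT levels were under background in all 3 mice. In all, 4 of the 13 were above background on all 6 arrays. Without mouse 3 the count was 3 of 13, and without mouse 1 or mouse 2 it was 8 of 13.

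The short-tail fraction of the same mice gave the histones differing values. H4c8 stood at 5.87, 5.55 and 5.61 in WASH, a WASH minus INPUT difference of -4.61, and H3c1 had -3.35, H1f4 -2.69 and H3c14 -2.07. For these 4 genes the difference between the fractions, ELUTED minus WASH, was -0.60, -0.51, 0.06 and 0.43, with adjusted p of 0.062, 0.051, 0.78 and 0.27 in limma. They were low in both bound fractions. The H4c8 signal was above background in 1 of 3 mice in WASH and in 0 of 3 in ELUTED, so the size of its differences is not exact. H2bc4 was not low in WASH. It read 8.59, 8.58 and 8.35 in INPUT, 9.13, 8.64 and 8.72 in WASH, and 6.45, 6.55 and 5.83 in ELUTED. Its ELUTED minus WASH difference was -2.56 (limma, adjusted p = 0.0094), with an ELUTED level above background in 1 of 3 mice, so the size is not exact. H2bc22 was low in WASH, with a WASH minus INPUT difference of -1.35 (limma, adjusted p = 4.8e-05), and its ELUTED minus WASH difference was -2.82 (adjusted p = 0.0098). For H2bu2 the latter was -0.86 (adjusted p = 0.024). Another probe set of H2bc22 gave an ELUTED minus INPUT difference of -0.54 against -4.16 for the one used here.

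The 9 histone variant genes tested, whose transcripts carry tails, had a median of -0.54, and 1 of them passed. This was H2az1, the variant H2A.Z, at 10.27, 10.15 and 9.97 in INPUT and 8.03, 8.85 and 7.87 in ELUTED. Its mean difference was -1.89 ± 0.51 (SD, n = 3; limma, adjusted p = 0.033).

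**Figure D2:**
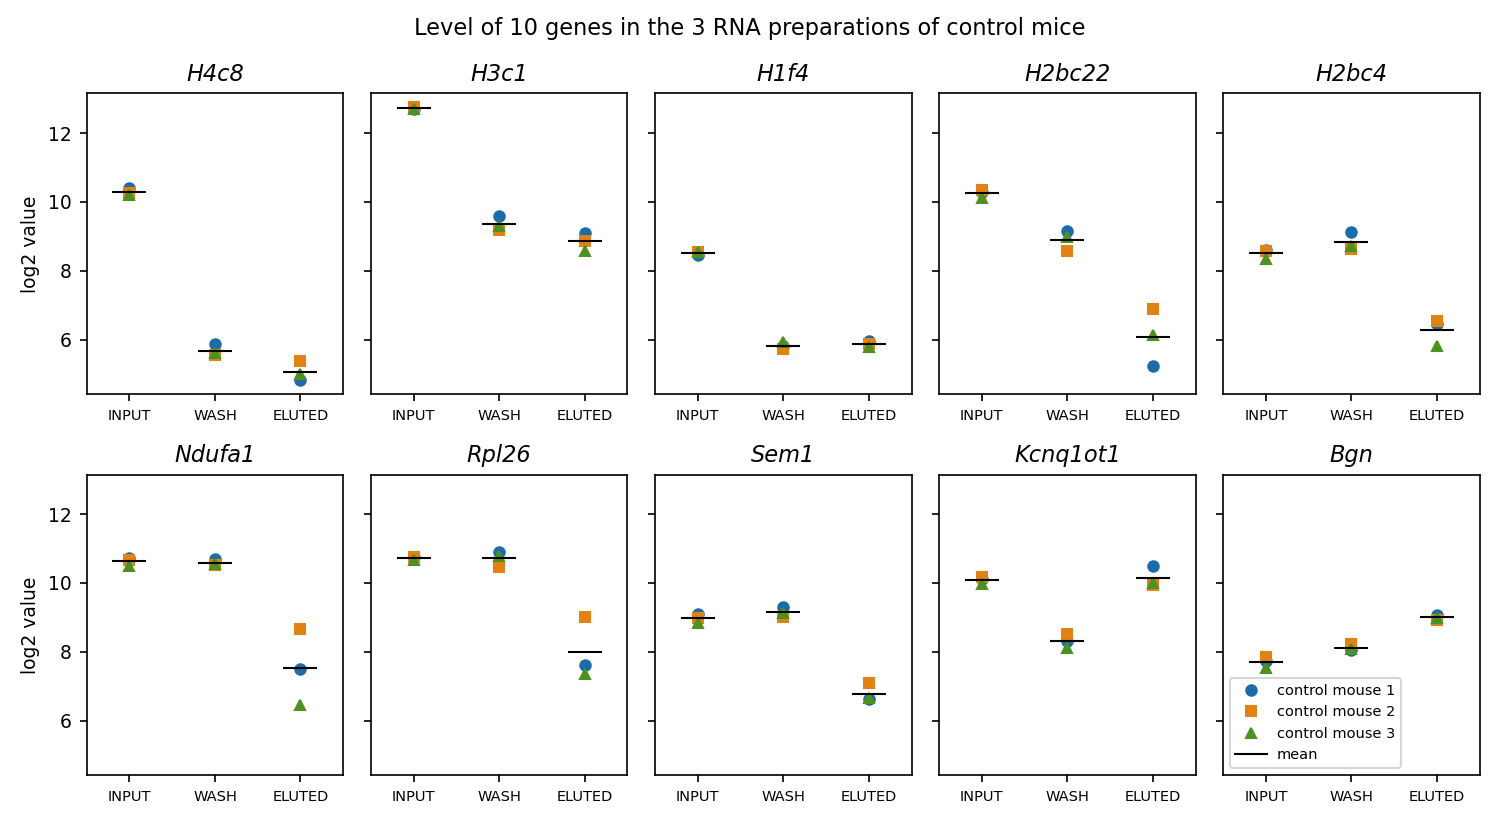
Log2 level of 10 genes (vertical axis) in INPUT, WASH and ELUTED of 3 control mice, with 1 symbol a mouse and a black bar for the mean. H4c8, H3c1 and H1f4 are low in both fractions, H2bc4, Ndufa1, Rpl26 and Sem1 are lower in ELUTED than in both others, and Kcnq1ot1 is low in WASH alone, with a WASH minus INPUT difference of -1.77.

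Ribosomal proteins build the ribosome, which translates mRNA in the cytosol. Of 66 cytosolic ribosomal protein genes tested, 43 were lower in ELUTED, against 3.5% of all genes, and 0 were higher. In all 3 mice 64 had a lower value, as 32.4% of all genes did. The median was -1.58, against -0.03 for all genes, and it was -1.58, -1.13 and -2.06 in mice 1, 2 and 3. Both subunits took part, with 26 of 41 large-subunit genes lower (median -1.50) and 17 of 25 small-subunit genes (median -1.63). The 43 became 58 without mouse 1, 55 without mouse 2 and 0 without mouse 3.

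Rpl26, a protein of the large subunit, stood at 10.76, 10.74 and 10.67 in INPUT and at 7.63, 9.02 and 7.36 in ELUTED. The INPUT values lay within 0.1 of each other, and the ELUTED value of mouse 2 was the highest of the 3. The mean difference was -2.72 ± 0.87 (SD, n = 3; limma, adjusted p = 0.032). Rps25, of the small subunit, read 11.33, 11.24 and 11.19 in INPUT and 8.41, 9.78 and 7.91 in ELUTED. Its mean difference was -2.55 ± 0.96 (SD, n = 3; limma, adjusted p = 0.034), again with the highest ELUTED value in mouse 2. The ribosomal protein with the lowest mean was Rpl12 at -2.90, whose ELUTED level was above background in 2 of 3 mice. At the other end Rps15a, Rpl14 and Rps2 stood at 0.04, -0.36 and -0.38, and none of them passed. Rps15a and Rpl14 were under background in all INPUT arrays. Probe sets of 1 gene did not always agree: 3 for Rpl37 ran from -2.91 to -0.28, and those for Rpl24 were -2.33 and 0.23. Ribosomal protein genes also have many processed pseudogenes, whose transcripts such probes can read.

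Transcripts of ribosomal proteins are known for a run of pyrimidines at the very 5′ end. Start-site windows of 30 bases, 15 on each side of the start annotated by RefSeq in GRCm38.p6, were therefore searched for the motif CTTTT, the motif CTTTC, the motif CTTCC and the motif CTCTT, which may overlap. Of 52 ribosomal protein genes with a window, 26 (50%) held 1 of these on the sense strand, and 18% of the 9645 tested genes with a window did. On the opposite strand the shares were 21.2% and 18.1%. Among the 312 depleted genes with a window that were not cytosolic ribosomal proteins the sense-strand share was 23.1%. The windows of 8 depleted passing ribosomal protein genes are shown because these transcripts moved together. They are a selection, and some genes with a window that are not shown may be more depleted. A sense-strand match is in capitals, and the start is at the 16th base.
Rpl12, chr2:32961697-32961726, plus strand: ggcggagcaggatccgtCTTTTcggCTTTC
Rpl39, chrX:37085208-37085237, minus strand: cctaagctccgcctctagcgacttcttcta
Rpl26, chr11:68901551-68901580, plus strand: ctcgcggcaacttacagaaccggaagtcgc
Rps25, chr9:44407699-44407728, plus strand: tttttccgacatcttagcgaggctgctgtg
Rps9, chr7:3704026-3704055, plus strand: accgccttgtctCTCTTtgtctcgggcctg
Rpl9, chr5:65391417-65391446, minus strand: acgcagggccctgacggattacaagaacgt
Rpl24, chr16:55966260-55966289, plus strand: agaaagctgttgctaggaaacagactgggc
Rps28, chr17:33824548-33824577, minus strand: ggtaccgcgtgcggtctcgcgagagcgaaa
Of these 8 genes, Rpl12 and Rps9 held a match. A match describes the letters in the window alone, and annotated starts can lie some bases away from the start used in brain.

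The mitochondrial ribosome is built from a protein set of its own. Of 72 of its genes tested, 22 were lower, against 3.5% of all genes, and 0 were higher. The median was -0.93, against -0.03 for all genes, with medians of -1.02, -0.65 and -1.03 in the 3 mice. In a fit of only the probe sets above background on all 6 arrays, 18 of 47 were lower. Mrpl42, of the large subunit, read 10.89, 11.00 and 10.94 in INPUT and 8.40, 9.34 and 8.30 in ELUTED, a mean difference of -2.26 ± 0.53 (SD, n = 3; limma, adjusted p = 0.032). Mrps33, of the small subunit, had the lowest mean at -2.73, with an ELUTED level above background in 2 of 3 mice. Mrpl38 lay at -0.01. Without mouse 3, 0 of the 72 passed, and without mouse 1 or mouse 2, 35 or 38 did.

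The nuclear genes of oxidative phosphorylation, the mitochondrial chain that makes ATP, had the lowest median of all lists. Of 69 tested, 47 were lower in ELUTED, against 3.5% of all genes, and 0 were higher. In all 3 mice 68 were lower, as 32.4% of all genes were. The median was -1.83, and it was -2.02, -1.11 and -2.17 by mouse. Every complex of the chain had members that passed: 27 of 33 in complex I, 1 of 3 in complex II, 4 of 8 in complex III, 5 of 9 in complex IV and 9 of 15 in complex V. Without mouse 1 the count was 58, without mouse 2 it was 65 and without mouse 3 it was 0.

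Ndufa1, an accessory subunit of complex I, stood at 10.73, 10.66 and 10.48 in INPUT and at 7.49, 8.65 and 6.46 in ELUTED. The preparations did not overlap, and the mean difference was -3.09 ± 1.02 (SD, n = 3; limma, adjusted p = 0.032). Uqcrq, a small subunit of complex III, read 11.81, 11.80 and 11.70 in INPUT and 9.05, 9.81 and 8.11 in ELUTED. Its mean difference was -2.78 ± 0.80 (SD, n = 3; limma, adjusted p = 0.032), whereas the highest of its 3 probe sets gave 0.38. Ndufc1 and Ndufc2, both of complex I, differed by -2.73 and -2.62. Uqcrb, of complex III, had the lowest mean of the list at -3.87, with an ELUTED level above background in 1 of 3 mice.

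The members nearest to 0 were subunits of complexes II, III and V. Sdha, the flavoprotein of complex II, read 11.53, 11.51 and 11.40 in INPUT and 10.81, 11.64 and 11.59 in ELUTED, and the preparations overlapped. Its mean difference was -0.13 (adjusted p = 0.72). Uqcrc2, a core protein of complex III, had -0.52 (adjusted p = 0.19), and Atp5d, of ATP synthase, had -0.40 (adjusted p = 0.25). Ndufv1, a core subunit, was the member of complex I nearest to 0, at -0.72 (adjusted p = 0.10).

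**Figure D3:**
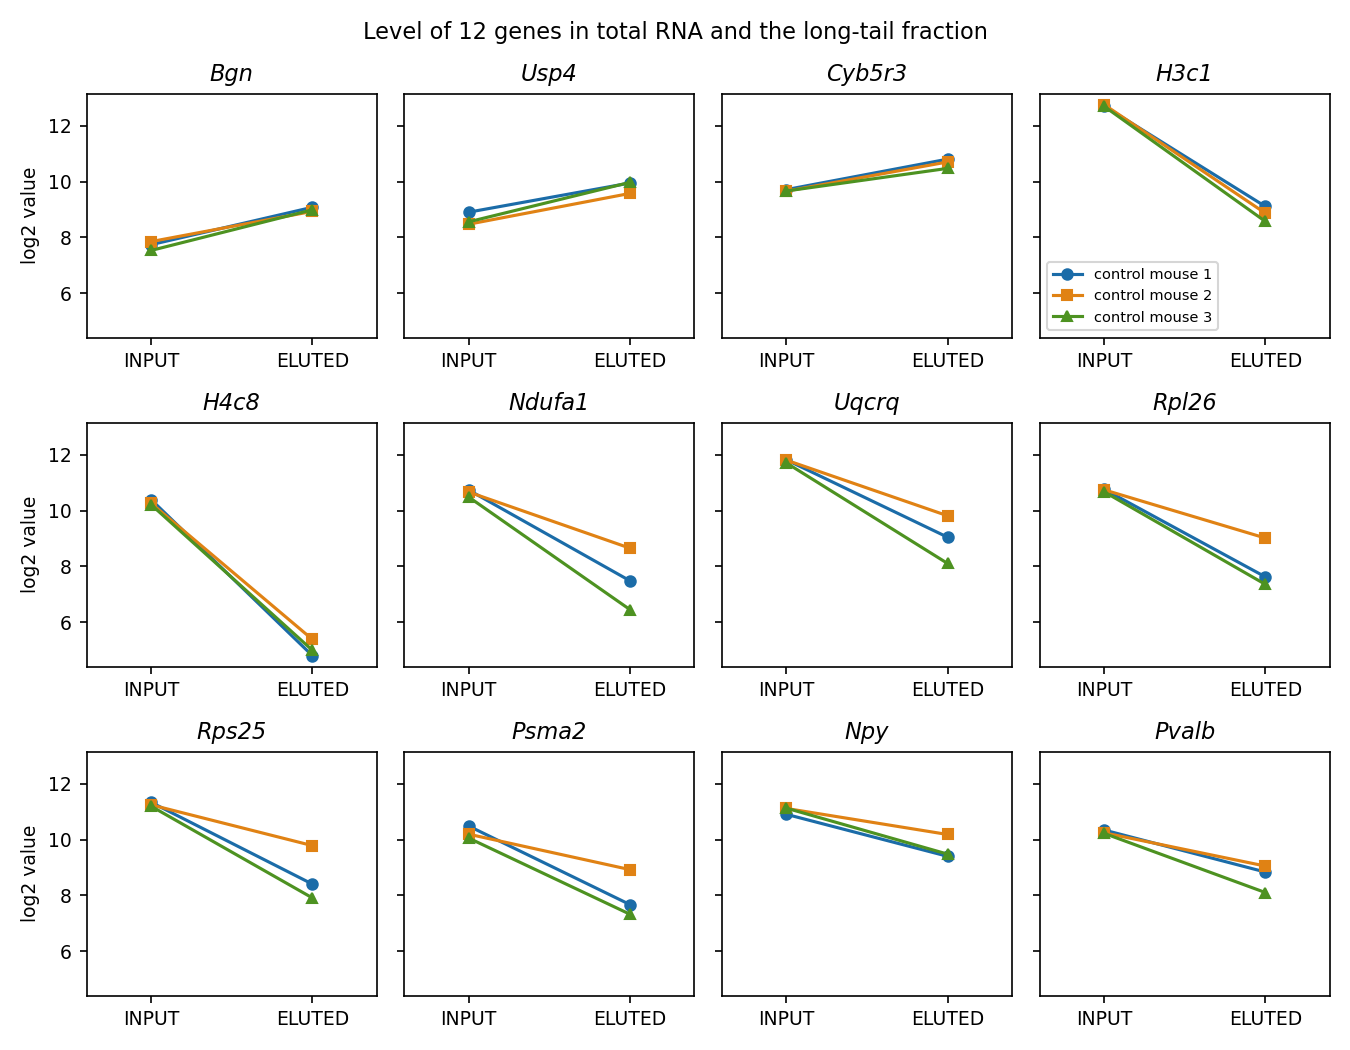
Log2 level (vertical axis) of 12 genes in INPUT and ELUTED, with 1 line for each of the 3 control mice. Bgn, Usp4 and Cyb5r3 go up in every mouse, and the other 9 genes go down in every mouse, with the highest ELUTED value of Ndufa1, Uqcrq, Rpl26, Rps25 and Psma2 in mouse 2.

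The proteasome, which degrades tagged proteins, had a median of -1.43 over 33 genes, with -2.08, -0.74 and -1.63 in mice 1, 2 and 3. Of these, 7 were lower, against 3.5% of all genes, and 0 were higher. In all 3 mice 29 were lower, as 32.4% of all genes were. The 14 genes of the 20S core, which holds the proteolytic sites, had a median of -2.11 and 5 that passed. The 19 genes of the 19S particle, which recognises and unfolds substrates, had -0.95 and 2 that passed. The difference between the 2 particles was not tested. Psma2, of the core, stood at 10.48, 10.19 and 10.05 in INPUT and at 7.67, 8.92 and 7.33 in ELUTED, a mean of -2.26 ± 0.87 (SD, n = 3; limma, adjusted p = 0.036). Sem1, a small subunit of the regulatory particle, read 9.09, 8.98 and 8.84 in INPUT and 6.63, 7.08 and 6.65 in ELUTED. Its mean was -2.19 ± 0.28 (SD, n = 3; limma, adjusted p = 0.032). Psmb7 and Psma6, both of the core, had lower means of -3.89 and -3.0 with SDs of 2.11 and 1.62, and did not pass (adjusted p = 0.051 and 0.053). The count was 18 without mouse 1, 28 without mouse 2 and 0 without mouse 3.

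Further lists cover RNA and protein handling, to be read against the 3.5% of all genes that were lower. Of 39 translation factors 5 were lower (median -0.66), among them Eif1ax at -2.04, Eif1b at -1.76 and Eif2s2 at -1.40, which act at the start of translation. Of 29 genes for small nuclear RNP and Lsm proteins, the protein core of the spliceosome's RNA particles, 7 were lower (median -0.78). They included Snrpe at -2.19, Snrnp25 at -2.08 and Snrpg at -1.93. Among the 13 genes of this list above background on all 6 arrays, 2 were lower and the median was -0.22. Of 43 chaperones 1 was lower, no larger a share than among all genes, and the median was -0.72. This was the prefoldin subunit Pfdn1 at -2.23. That list differed widely between mice, with medians of -1.53, -0.22 and -0.74. The 26 SR proteins and hnRNPs, which steer splicing, gave -1.66, -0.19 and -0.32 by mouse, and 0 of them passed. Nop10, a protein of the particles that guide pseudouridine formation, read 10.98, 10.84 and 10.89 in INPUT and 8.68, 9.02 and 7.31 in ELUTED (mean -2.57; limma, adjusted p = 0.033). Tma7, a ribosome-associated protein, had -2.54.

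At this threshold 48 probe sets were enriched in the long-tail fraction, while 24.7% of all genes were higher in all 3 mice. The count was 1271 with each mouse's differences rescaled to 1 SD, and 1605 with the spread of all 6 mice. Of the 7 genes that passed as higher, 3 were above background on all 6 arrays. Bgn encodes biglycan, a proteoglycan of the extracellular matrix. It stood at 7.74, 7.85 and 7.54 in INPUT and at 9.08, 8.93 and 8.99 in ELUTED, with a mean difference of 1.29 ± 0.19 (SD, n = 3; limma, adjusted p = 0.034). Usp4, a ubiquitin protease, read 8.91, 8.48 and 8.56 in INPUT and 9.95, 9.57 and 9.97 in ELUTED, a mean of 1.19 ± 0.20 (SD, n = 3; limma, adjusted p = 0.038). Cyb5r3, a cytochrome b5 reductase, read 9.71, 9.66 and 9.66 in INPUT and 10.80, 10.70 and 10.47 in ELUTED. Its mean was 0.98 ± 0.15 (SD, n = 3; limma, adjusted p = 0.050). None of these 3 overlapped between the preparations, which largely follows from their choice by this test.

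Tsc1 encodes hamartin, an inhibitor of the growth kinase mTORC1, and was the 1 gene of 65 on the autism-associated list that passed. It stood at 7.71, 7.86 and 7.52 in INPUT and at 8.87, 8.73 and 8.49 in ELUTED. The mean was 1.00 ± 0.15 (SD, n = 3; limma, adjusted p = 0.049), and 2 of 3 INPUT levels were above background. Its 3 probe sets ran from 0.07 to 1.00, and 1 of them passed. Ccdc30 had a mean of 1.29 with INPUT under background in all 3 mice, so it was at least 1.64-fold higher in ELUTED. Of its 5 probe sets, which ran from 0.20 to 1.29, 1 passed. Amer2 and 2610005M20Rik had 1.06 and 1.18, with INPUT above background in 1 of 3 mice. Of the 48 probe sets that were higher, 35 carried no gene name or several. Without mouse 3, 0 probe sets were higher.

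Genes of neuronal signalling showed little shift as groups. The 50 voltage-gated channel genes had a median of 0.10, with 0.28, -0.07 and 0.17 by mouse, and 0 passed in either direction. The 48 glutamate receptor and postsynaptic scaffold genes had a median of 0.06, the 50 presynaptic genes -0.12 and the 10 GABA receptor subunits -0.26, and 0 passed in each. The median of the 65 autism-associated genes was 0.03. Single members had large differences with wide spread. Shank1, a postsynaptic scaffold, gave 1.90, -0.17 and 0.62, and Shank3 gave 1.57, 0.22 and 1.16 (adjusted p = 0.11). Ctnnb1, or beta-catenin, gave -2.78, -0.13 and -0.79 (adjusted p = 0.18). In each of these the value of mouse 1 was the farthest from 0. Setd1b, a histone methyltransferase, had the highest mean of the 76 chromatin regulators, 1.5 (adjusted p = 0.072). Smarca5, a chromatin remodeller, was the 1 member that passed, at -1.58, where 3.5% of all genes were lower.

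**Figure D4:**
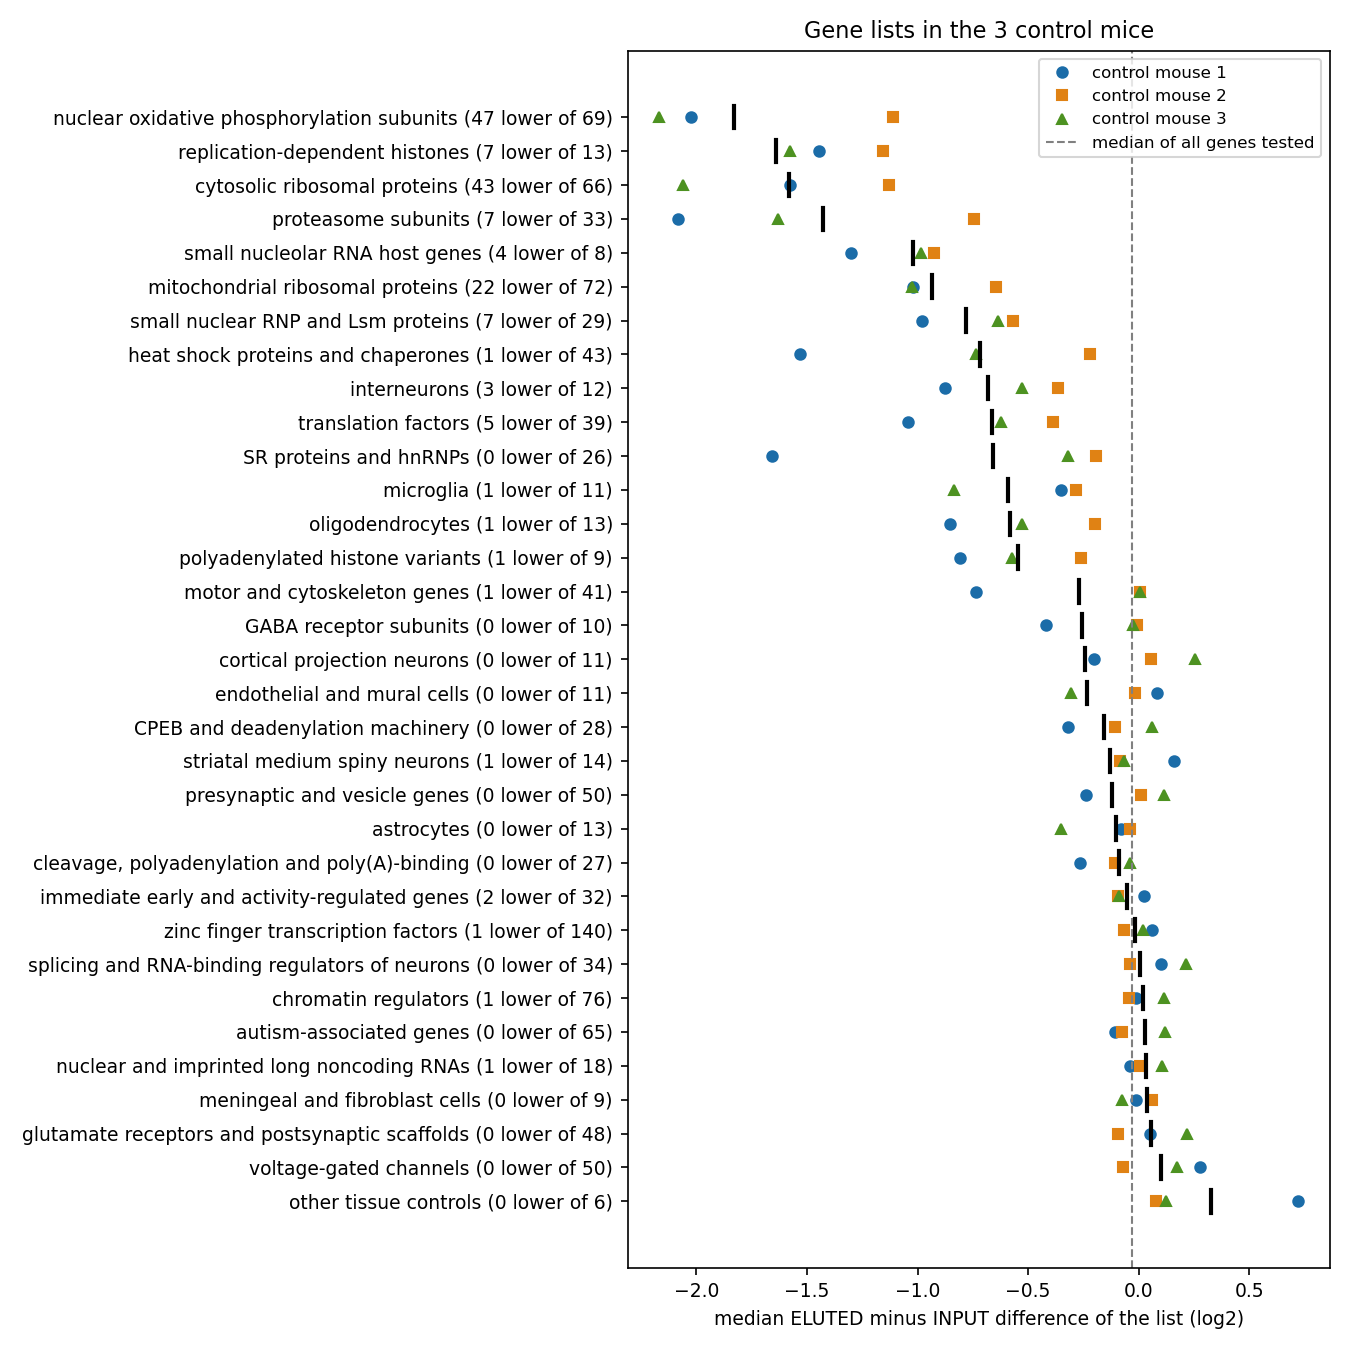
Median ELUTED minus INPUT difference (log2, horizontal axis) of each gene list in each of 3 control mice (symbols), with the median of the members' means as a black bar and the median over all genes, -0.03, as a dashed line. The row labels give how many of the members tested were lower at an adjusted p under 0.05. Oxidative phosphorylation, histones, ribosomal proteins and the proteasome lie to the left of that line in every mouse.

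Transcripts of secreted peptides and cell type markers were checked for the cells that the tissue holds. Interneuron markers had a median of -0.68, and 3 of 12 were lower, against 3.5% of all genes. Pvalb, the calcium buffer parvalbumin, read 10.34, 10.24 and 10.22 in INPUT and 8.84, 9.05 and 8.11 in ELUTED (mean -1.60; limma, adjusted p = 0.035). Npy, neuropeptide Y, read 10.90, 11.11 and 11.12 in INPUT and 9.40, 10.18 and 9.48 in ELUTED (mean -1.36; limma, adjusted p = 0.038). Crh, corticotropin-releasing hormone, had -1.36 but was under background on all 6 arrays. In the same list Lhx6, a transcription factor of interneurons, stood at 8.24, 8.21 and 8.49 in INPUT and at 8.97, 8.99 and 9.24 in ELUTED. Its mean of 0.75 did not pass (adjusted p = 0.074).

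The counts that follow are to be read against the 3.5% of all genes that were lower. In lists this short, 1 call is no result about a cell type. Among 14 markers of striatal medium spiny neurons 1 passed, Tac1, the substance P precursor, at -1.64. Penk, the enkephalin precursor, had -0.83 (adjusted p = 0.083) and Drd1, a dopamine receptor, had -0.49 (adjusted p = 0.18). Rgs9, a signalling regulator of the striatum, had 0.92 (adjusted p = 0.082). Of 11 microglial markers 1 passed, the complement gene C1qb at -1.76, and of 13 oligodendrocyte markers 1, Ppp1r14a, at -1.48. Of 13 astrocyte, 11 cortical projection neuron, 11 endothelial and mural, and 9 meningeal and fibroblast markers, 0 passed. The defining markers Slc17a7 for cortical and Drd1 for striatal neurons were above background in all 6 arrays. The 6 tested genes of liver, pancreas, skin and other tissues outside the brain had a median of 0.33, and 1 of them was above background on all 6 arrays. Of 32 activity-regulated genes 2 passed, Plk2 at -1.47 and Rgs2 at -1.16.

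Transcripts without a protein product were covered by 2 lists, whose difference was not tested. Of 8 host genes of small nucleolar RNAs, whose introns hold the small RNAs, 4 were lower, against 3.5% of all genes. Without mouse 3 the count was 0. Of the 3 above background on all 6 arrays, 1 was lower. Snhg8 stood at 10.65, 10.58 and 10.43 in INPUT and at 8.05, 8.72 and 6.22 in ELUTED (mean -2.89 ± 1.20, SD, n = 3; limma, adjusted p = 0.037). Snhg10, Gas5 and Snhg6 had -2.21, -1.61 and -1.27, but the 4 probe sets of Snhg10 ran from -2.21 to 0.32 and 1 of them passed. Of 18 nuclear and imprinted long noncoding RNAs 1 was lower, Pantr1 at -1.56, where 3.5% of all genes were. The median of the 18 was 0.04. Malat1, an abundant nuclear RNA, read 12.38, 12.33 and 12.41 in INPUT and 12.18, 12.22 and 12.20 in ELUTED (mean -0.17, adjusted p = 0.51).

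Kcnq1ot1, an imprinted antisense RNA that stays at its locus, read 10.10, 10.17 and 9.98 in INPUT, 8.31, 8.5 and 8.11 in WASH, and 10.50, 9.93 and 9.99 in ELUTED. ELUTED overlapped INPUT, with a mean difference of 0.06. ELUTED minus WASH was 1.83 (limma, adjusted p = 0.0094), and all 3 WASH values were the lowest. Of the 18 RNAs, 10 were higher in ELUTED than in WASH, where 11.1% of all genes were.

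The machinery of the tail itself did not pass. Of 28 genes of the CPEB and deadenylation group, and of 27 for cleavage, polyadenylation and poly(A) binding, 0 were called in either direction, with medians of -0.16 and -0.09. Cpeb4 stood at 8.44, 8.36 and 8.30 in INPUT and at 6.31, 7.46 and 7.43 in ELUTED. The preparations did not overlap, and the mean of -1.30 ± 0.72 (SD, n = 3) missed the threshold at an adjusted p of 0.074 in limma. In the transgenic mice the same probe set had -1.20 and passed (adjusted p = 9.9e-04). Cpeb1, Cpeb2 and Cpeb3 had mean differences of -0.16, -0.25 and 0.04.

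The short-tail fraction of the same mice gave the lists other values. The WASH minus INPUT medians, which share the INPUT arrays, were 0.10 for cytosolic ribosomal proteins, 0.16 for oxidative phosphorylation, 0.25 for the proteasome and 0.13 for all genes. Ndufa1 had -0.03 and Rpl26 -0.01 there. In the direct comparison, ELUTED minus WASH, the medians were -1.66, -1.97 and -1.76. At an adjusted p under 0.05 in limma, 62 of 66 ribosomal protein genes, 68 of 69 oxidative phosphorylation genes and 27 of 33 proteasome genes were lower in ELUTED than in WASH, against 30.8% of all genes. For the 13 histones the median was -0.51, and 5 were lower.

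The transgenic mice share no array with the controls and were fitted on their own. There 3115 probe sets passed (11.5%), 830 higher (3.07%) and 2285 lower (8.46%). Of the 742 lower in control mice, 672 were also called lower in transgenic mice, which is 90.6% of the control calls and 29.4% of the transgenic ones. Of the 48 higher ones, 44 were shared, 91.7% and 5.30% of each list. All 742 and all 48 had the same sign in transgenic mice. The share of all probe sets that did so is not given here, so this does not show how particular it is to the calls. The list medians in transgenic mice were -0.71 for ribosomal proteins, -0.67 for oxidative phosphorylation, -0.44 for the proteasome and -1.28 for histones. H4c8 had -4.70 and H3c1 -3.56, against -5.22 and -3.86 in control mice, where the ELUTED level of H4c8 was under background. H2bc22, also a histone, had -2.72 against -4.16. Ndufa1 had -1.37 against -3.09 and Rpl26 -1.08 against -2.72.

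The test of the difference between the genotypes called 0 of 27022 probe sets in limma, with 1859 at an unadjusted p under 0.05 and a lowest adjusted p of 0.69. Without control mouse 2, the mouse with the smallest differences, it called 196. Mouse 3 of the transgenic group departed from the rest: over all probe sets its differences correlated at 0.031, 0.438 and 0.399 with those of control mice 1, 2 and 3, and other pairs across genotypes at 0.633 to 0.761. These are correlations across probe sets, which are no independent replicates.

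**Figure D5:**
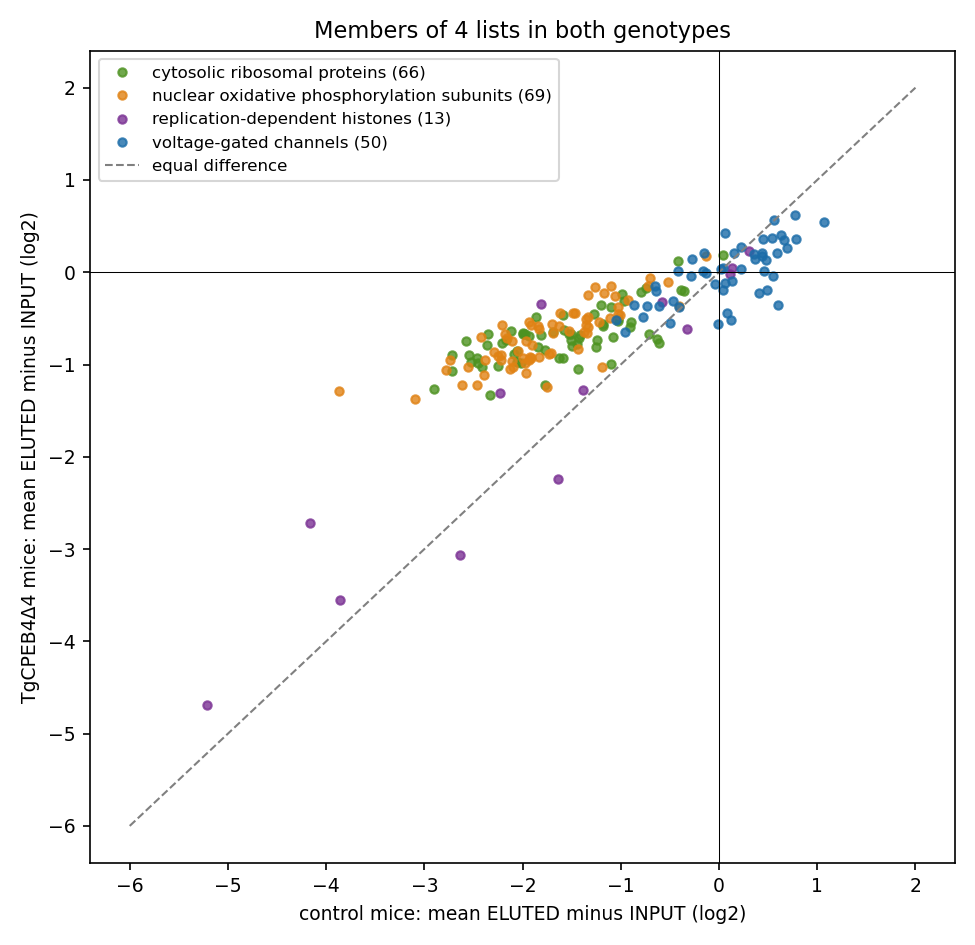
Mean ELUTED minus INPUT difference (log2) in 3 TgCPEB4∆4 mice (vertical axis) against that in 3 control mice (horizontal axis) for the members of 4 gene lists, with a dashed line where both are equal. Ribosomal protein and oxidative phosphorylation genes lie above the line on the left, with medians of -0.71 and -0.67 against -1.58 and -1.83. The histones H4c8 and H3c1 lie nearer to it, and the histone H2bc22, at -2.72 against -4.16, does not.

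Lower calls were more frequent at high levels. Probe sets were put in 5 bins of equal size by mean level over the 6 arrays compared, the same values that give the differences. The median difference was 0.12, 0.13, 0.04, -0.12 and -0.19 from the lowest to the highest bin. In the same order 60, 66, 129, 219 and 268 probe sets were called lower. Higher calls numbered 3, 11, 11, 14 and 9. Of 12429 probe sets above background on all 6 arrays, 412 were lower and 18 higher. Probe sets for 1 gene had a median of -0.03, and those without a name or with several had 0.13. Of 4622 genes with 2 or more tested probe sets, 233 had a passing one. In 189 of these every probe set lay on the same side of 0, and 0 had probe sets passing in opposite directions.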

How the data were processed

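The authors deposited log2 values per probe set, and the submitters' processing notes name RMA, with no version. RMA corrects background, equalises the arrays' distributions and summarises probes, which removes any change common to most transcripts. Per the labels' protocols, amplification of 5 ng of RNA ran for 21 cycles, and each array took 8 µg of cDNA. The design text names a Mouse PrimeView array, whereas the probe set names are those of a perfect-match array, whose annotation was used. Of 45141 probe sets, 104 control ones were left out, and those with a mean over the 18 arrays above the 40th percentile (5.95) were tested: 27022, of which 19143 have 1 gene, 411 several and 7468 none. Symbols were checked against RefSeq GRCm38.p6, with 28689 probe sets matched.

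Differences within mice were tested in limma 3.58.1 (R 4.3.3; lmFit, eBayes, two-sided, Benjamini-Hochberg over all probe sets tested, adjusted p under 0.05), and the code was tested on simulated data. Tables and plots were made with Python 3.11.15. A gene is represented by its probe set with the highest mean. The pairing comes from the labels, which put INPUT and ELUTED in 1 mouse. Deviations from the group means of the 2 arrays of a mouse correlated at -0.29, 0.06 and -0.08 in control mice and at 0.64, 0.28 and 0.23 in transgenic mice. Without the pairing, 2038 probe sets passed in place of 790. The members, gene lists and tests were chosen with earlier results of these data known. Genes named are the largest passing differences in each direction above background on all 6 arrays, those above background in 1 preparation alone, the extremes of each list, and the Cpeb genes. The genes with the smallest p between genotypes, also in the rule, are not printed since 0 passed. Genes outside the rule, such as Kcnq1ot1, Malat1, Ndufv1, the genes with differing probe sets and the start windows, were chosen after their values were seen. Alternatives were other filters, normalizations, spreads and pairings, and leaving out each mouse. Arrays carry no read depth, and 3 mice limit the precision.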

Additional observations from a re-analysis of the deposited data

Results flagged for a closer look

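For the 5 genes flagged here every control mouse lay on 1 side of 0 and every transgenic mouse on the other in ELUTED minus INPUT. The share of all genes tested that did so is not given here, so the 5 do not show how rare the pattern was. Cdr1os had a mean of 0.60 in control and -0.47 in transgenic mice. Igfbp5 had 0.20 and -0.64, Rasgrf2 had 0.40 and -0.25, Trem2 had 0.14 and -0.38, and Gabrb1 had 0.35 and -0.17. The limma test of the difference between genotypes gave an adjusted p of 0.69 for each, so none passed. Igfbp5 and Trem2 were under background in all control INPUT arrays, and in Gabrb1, Rasgrf2 and Trem2 control mouse 2 lay at 0.00, 0.03 and 0.00.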

How the results depend on the processing

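The number of calls did not hold across the alternatives. All of the 790 calls that an alternative tested kept their sign in it. This is no sign of stability, since the calls were chosen by large differences in the same arrays. No filter gave 0 (9875 at an unadjusted p under 0.05) and another quantile normalization of the 6 arrays gave 2 (7167 at an unadjusted p under 0.05). The 60th percentile filter gave 450, rescaling each mouse's differences to 1 SD gave 4864 and the spread of all 6 mice gave 5204, with 26.1% and 30.8% of calls higher against 6.08%. Fitting without the replicate block, that is without the pairing of arrays within a mouse, gave 2038, of which 18.8% were higher, and shared 781 of the 790. Leaving out 1 mouse gave 3 to 3972 calls, the fewest without mouse 3. Averaging the probe sets of each gene gave 878 genes in place of 426. The replicate block left the genotype difference at 0 calls, and leaving out 1 mouse gave 0 to 196, the latter without control mouse 2. In transgenic mice leaving out 1 mouse gave 1088 to 10361 in place of 3115, the most without mouse 3. For ELUTED minus WASH it gave 5602 to 11708 in place of 12361, the fewest without mouse 3.

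The median of cytosolic ribosomal proteins ran from -1.77 to -1.33 over 13 alternatives, that of oxidative phosphorylation from -2.13 to -1.62, that of the proteasome from -1.97 to -1.02 and that of histones from -1.81 to -1.11. Lists near 0 were less stable: the median of autism-associated genes changed sign in 3 alternatives and that of meningeal markers in 4, while that of channels kept its sign. H3c1 passed in 11 of 12 alternatives and H4c8 in 10 of 11. Leaving out mice in the transgenic and WASH comparisons was added after seeing the data. The cause of these changes was not tested.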

Other observations

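Gene families grouped by the stem of their symbols, chosen after their values were seen, gave depleted groups that can overlap the lists above. All 9 tested Ndufb genes, accessory subunits of complex I, which the oxidative phosphorylation list also covers, were lower (median -2.22). Of 8 Tomm genes of the outer mitochondrial import pore 3 were lower (median -1.06), and of 12 Timm genes of the inner import machinery 3 (median -0.72). Of 22 Polr genes, subunits of RNA polymerases, 4 were lower (median -0.71), and of 15 Smim genes for small membrane proteins 3 (median -0.85). At the other end, 12 Cacna genes for calcium channel subunits had a median of 0.47, 11 Atxn genes 0.42 and 27 Col genes for collagens 0.28, and 0 of them passed. Across all genes, 3.5% were lower.

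Genes outside the lists, picked after their values were seen, were also lower. Gpx4, a peroxidase that protects membrane lipids, stood at 11.18, 11.28 and 11.31 in INPUT and at 8.46, 9.86 and 8.17 in ELUTED (limma, adjusted p = 0.034). Tmsb4x, which binds actin monomers, read 10.85, 10.86 and 10.80 in INPUT and 8.55, 9.12 and 7.64 in ELUTED (limma, adjusted p = 0.032). Txn1, or thioredoxin, differed by -2.40, Ppia, a prolyl isomerase, by -1.61 and Mif, a cytokine, by -1.43. Hbb-b2, a beta-globin of red blood cells, differed by -2.26.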
